A study of Homo sapiens with 6 samples.

Results

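Autophagy encloses parts of the cytoplasm in a double membrane, the autophagosome, and delivers them to the lysosome for breakdown. The genes described here encode its core machinery and the receptors that select cargo. They are 43 of the 60643 rows of the deposited expression table, chosen by symbol from a list of the kinase and lipid kinase complexes, the conjugation enzymes, the ATG8 proteins, the cargo receptors and the fusion factors. Each symbol matched 1 row, and all 43 reached the level required for testing, at least 1 FPKM (fragments per kilobase of transcript, scaled to library size) in at least 3 libraries.

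The libraries came from HCT116, an established human colorectal cancer cell line, into which a short hairpin RNA against CAPG had been introduced under doxycycline control. CAPG caps the growing ends of actin filaments. The labels give 3 libraries of untreated cells (-Dox, genotype labelled WT) and 3 of cells induced with doxycycline for 3 days at 100 ng/µl, the unit as labelled (+Dox, genotype labelled CAPG Knockdown). Cells of both groups carried the hairpin, the sample descriptions name a single hairpin (shCAPG-2), and the labels do not say whether the cells were a clone or a pool. Doxycycline without this hairpin was not analysed here, so the drug and the knockdown cannot be told apart. The labels do not say that replicates were separate cultures, so the p-values reflect only how far these libraries spread, and that spread may be technical. In bulk RNA, fewer cells with a transcript and less of it per cell cannot be told apart.

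The estimated depth was 13500000 to 18700000 fragments per library, at which 3 fragments in a transcript of 1 kb give 0.160 to 0.222 FPKM, counting error only. Replicate 3 with doxycycline stood apart in its total, 586911 FPKM against 521832 to 536037 in the other libraries. Its second principal component score was 17.2 (a component with 21% of the variance). Replicates 1 and 2 with doxycycline lay at -12.2 and -13 there, and untreated replicates 1, 2 and 3 at 14, 2.6 and -8.55. That score parted replicate 3 with doxycycline from the other treated libraries, but not from untreated replicate 1. CAPG was at 61.1, 56.9 and 53.7 FPKM without doxycycline and at 8.18, 8.03 and 9.97 FPKM with it, so that 15.3% of its level was left (log2 change -2.59, SE 0.10, limma adjusted p = 7.24e-06). The exact permutation p for CAPG was 0.1 in a two-sided test, and no smaller value is possible with 3 libraries a group. The epithelial markers EPCAM, CDH1, KRT8, KRT18 and CDX2 were present, while KRT20, VIL1 and CEACAM5 stayed under 1 FPKM in every library. Of 16 markers of fibroblasts, leukocytes and endothelium 14 stayed under 1 FPKM in every library, the exceptions being COL1A1 (7.49 to 10.9 FPKM) and CD68. Among these markers EPCAM rose from 190 ± 8.12 to 241 ± 20 FPKM (limma adjusted p = 0.0401) and CD68 fell from 3.94 ± 0.476 to 2.01 ± 0.38 FPKM (limma adjusted p = 0.0167). Their part in the results on autophagy genes was not tested.

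Autophagosome formation starts when the ULK kinase complex activates a lipid kinase complex around Beclin 1 that marks the membrane with phosphatidylinositol 3-phosphate. WIPI proteins read that mark, ATG2 and ATG9 supply lipid to the growing membrane, and a ubiquitin-like conjugation system attaches ATG8 proteins to it. ATG8 proteins then bind cargo receptors and help the closed autophagosome to fuse with the lysosome. Much of this is regulated on proteins rather than transcripts, and RNA levels do not measure autophagic activity.

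The autophagy genes did not move as a group. With doxycycline VMP1, an endoplasmic reticulum (ER) protein needed for autophagosome formation, rose, and GABARAP, WIPI1, NBR1 and TECPR1 fell. These 5 of 43 genes are 11.6%, where 8.46% of all 14475 tested genes were called (limma, Benjamini-Hochberg adjusted p under 0.05 over all tested genes). By direction, 1 of 43 rose against 3.69% of the tested genes, and 4 of 43 fell against 4.77%. With no adjustment, 15 of 43 had a limma p under 0.05, 7 higher and 8 lower, against 27.9% of all tested genes. The groups did not overlap in 17 of the 43 genes, higher in 7 and lower in 10, and 34.5% of all tested genes had such groups. The median log2 change was -0.01 over the members and 0.00 over all tested genes, with a median size of 0.15 and 0.16. Log2 changes are on the scale of log2(FPKM + 1), which understates the change of low genes.

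**Figure D1:**
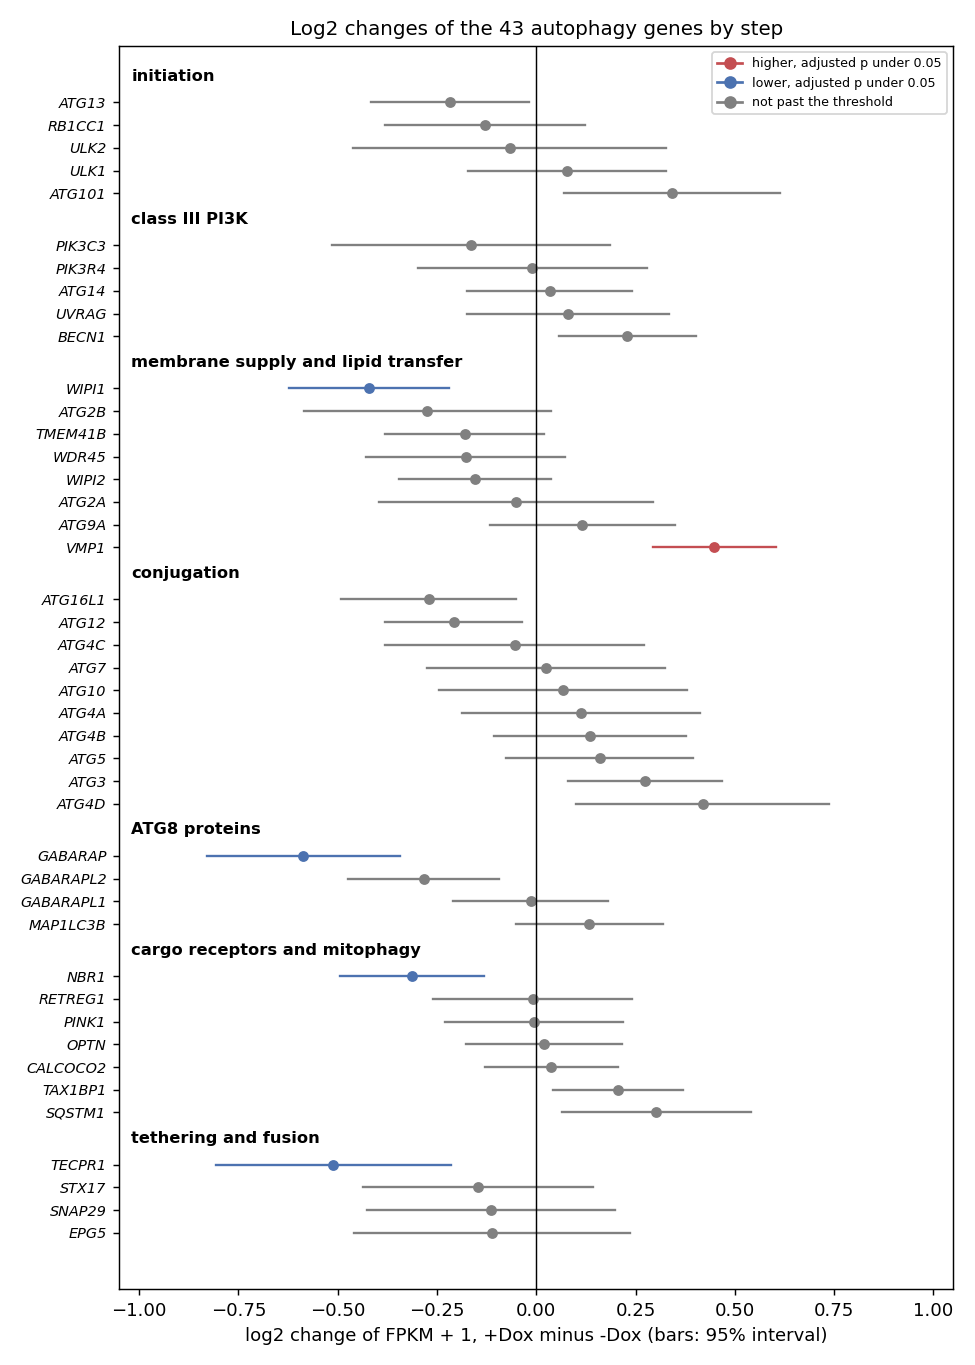
Log2 change of FPKM + 1 (x axis, with minus without doxycycline) for each of the 43 autophagy genes, grouped by step, with points for the estimate and bars for its 95% interval. VMP1 is the member called higher (red), and GABARAP, WIPI1, NBR1 and TECPR1 are those called lower (blue). Grey genes did not pass the threshold, and their points lie between -0.28 and 0.42.

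**Figure D2:**
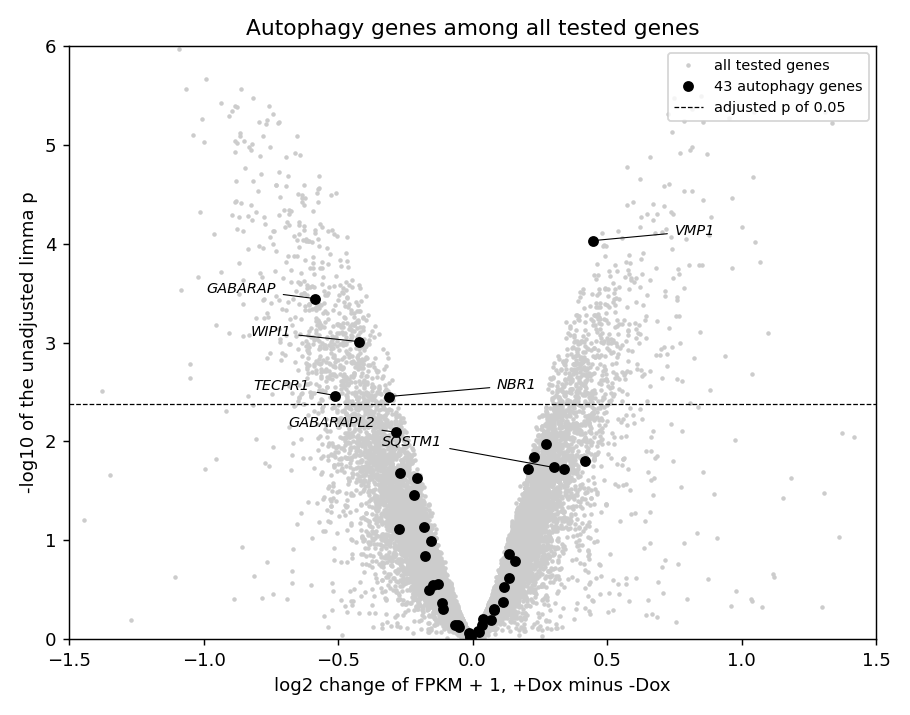
Log2 change (x axis) against -log10 of the unadjusted limma p (y axis) for all 14475 tested genes (grey) and the 43 autophagy genes (black), with the adjusted threshold as a dashed line. Of the members 5 lie above the line, and 21 tested genes fall outside the axes.

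The levels of the 43 genes spanned 1.76 to 180 FPKM as means over all 6 libraries, with a median of 16.9 FPKM against 10.2 FPKM for all tested genes. SQSTM1 (180 FPKM), GABARAP (130 FPKM) and VMP1 (107 FPKM) were the highest. The level of VMP1 lay close to that of ATG12 (99.7 FPKM), and their order depended on the group: without doxycycline ATG12 was higher in every library, and with it VMP1 was. The lowest were ULK2 (1.76 FPKM), ATG2B (2.86 FPKM) and TECPR1 (3.56 FPKM), and 13 members lay under 10 FPKM.

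None of the 5 genes of the initiation complex passed the test. ULK1 is its main kinase and ULK2 the related kinase, and ATG13, ATG101 and RB1CC1 (FIP200) hold the complex together. ATG101 had the smallest p of this step, at 28.2, 28.0 and 23.9 FPKM without doxycycline and 30.4, 31.8 and 40.8 FPKM with it (log2 change 0.34, SE 0.12, limma adjusted p = 0.105). All 3 treated libraries lay above the untreated ones, and the highest was replicate 3, the library that stood apart in its total FPKM. ATG13, the partner that binds ATG101, was at 28.4, 27.6 and 24.0 FPKM and at 22.6, 23.3 and 22.4 FPKM (log2 change -0.22, limma adjusted p = 0.145). Its groups did not overlap either, with the treated libraries lower. ULK1 was at 9.04 ± 1.26 and 9.55 ± 0.351 FPKM (SD, n = 3 each), with a 95% interval of the log2 change from -0.17 to 0.33. RB1CC1 (18.8 and 17.1 FPKM) and ULK2 (1.85 and 1.68 FPKM) overlapped between groups as well.

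The Beclin 1 complex had 0 of 5 genes past the threshold. PIK3C3 is the lipid kinase, PIK3R4 its regulatory subunit, and ATG14 and UVRAG are alternative partners that direct it to autophagosome formation or to later endosomal steps. BECN1, the scaffold, was at 53.2, 51.9 and 54.8 FPKM without doxycycline and at 61.6, 59.8 and 66.6 FPKM with it (log2 change 0.23, SE 0.08, limma adjusted p = 0.0922). The treated libraries were the higher ones, without overlap. BECN1 shares 795 and 300 exon bases with the genes CNTD1 and PSME3 on the opposite strand, and no source used here says whether reads were counted by strand. PIK3C3 (17.8 ± 2.43 and 15.9 ± 3.71 FPKM), PIK3R4 (10.63 and 10.52 FPKM), ATG14 (7.96 and 8.17 FPKM) and UVRAG (6.86 and 7.28 FPKM) overlapped between groups. Their log2 changes lay between -0.16 and 0.08.

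Of the 8 genes that build and feed the growing membrane, 1 rose and 1 fell. VMP1 (ENSG00000062716, chromosome 17, 59707192 to 59842255, plus strand, GRCh38) was at 87.7, 91.8 and 91.2 FPKM without doxycycline and at 124, 123 and 123 FPKM with it. The treated values were nearly equal, and all lay far above the highest untreated value. The log2 change was 0.45 (SE 0.07, limma adjusted p = 0.00791), an increase of 36.9%. The call was lost without -Dox replicate 2 (adjusted p = 0.0523) and ranged from 0.00701 to 0.0525 over the alternatives. TMEM41B, the other ER lipid scramblase that works beside VMP1, had the opposite sign, at 36.8, 40.0 and 37.1 FPKM and at 36.0, 34.1 and 30.2 FPKM (log2 change -0.18, limma adjusted p = 0.222).

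VMP1 is annotated over the hairpin of MIR21, the precursor of the abundant microRNA miR-21, which is shown because it lies within the exons of the called gene. All 72 bases of the hairpin (chromosome 17, 59841266 to 59841337) lie in VMP1 exons of the same strand. MIR21 itself was listed at 0 in all 6 libraries, so the table holds no measurement of the microRNA. VMP1 also shares 162 exon bases with PTRH2 on the opposite strand, which was at 64.1 to 68.4 FPKM without doxycycline and at 66.0 to 86.0 FPKM with it. The mature microRNA, from RefSeq on GRCh38.p14, is given with its seed in capitals.
hsa-miR-21-5p: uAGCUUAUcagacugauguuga

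WIPI1 (ENSG00000070540, chromosome 17, 68420948 to 68457513, minus strand) reads phosphatidylinositol 3-phosphate on the nascent membrane. It was at 13.1, 13.5 and 12.3 FPKM without doxycycline and at 8.82, 9.81 and 9.64 FPKM with it, and the groups lay well apart. The log2 change was -0.42 (SE 0.09, limma adjusted p = 0.0247), and the mean level fell by 27.3%. The call was lost without -Dox replicates 1 and 2 (adjusted p = 0.0629 and 0.115) and without +Dox replicates 1 and 2 (0.0799 and 0.0654), and ranged from 0.0183 to 0.115 over the alternatives. WIPI1 shares 828 of its 3402 exon bases with ARSG on the opposite strand, which was at 3.49, 3.12 and 1.64 FPKM without doxycycline and at 1.82, 1.04 and 1.48 FPKM with it. What that overlap contributes to the WIPI1 values was not tested.

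The other readers of the lipid mark did not pass the test. WIPI2, which recruits the conjugation complex, was at 38.8, 35.3 and 33.1 FPKM and at 30.6, 32.3 and 32.9 FPKM, treated libraries lower without overlap (log2 change -0.15, 95% interval -0.35 to 0.04). WDR45 was at 16.9 and 14.8 FPKM. The lipid transfer genes ATG2A (3.83 and 3.59 FPKM) and ATG2B (3.22 and 2.50 FPKM) and the scramblase gene ATG9A (23.9 and 25.8 FPKM) overlapped between groups. Over the 8 genes of this step the median log2 change was -0.17, and 6 of 8 changes were negative, as were 7299 of 14475 over all tested genes.

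**Figure D3:**
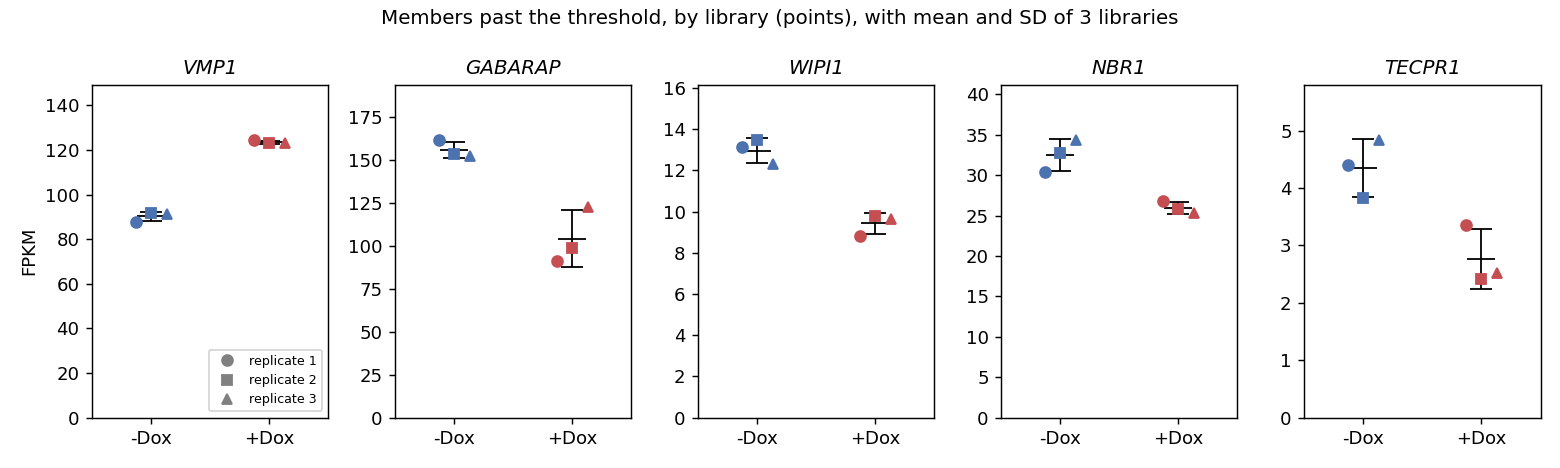
FPKM (y axis, from 0) in each library for the 5 autophagy genes past the threshold, with points for libraries (shape gives the replicate number), a short line for the mean and whiskers for the SD of 3 libraries. The groups do not overlap in any panel, and the GABARAP value of replicate 3 with doxycycline (123 FPKM) is the closest of its group to the untreated libraries.

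Among the 10 conjugation genes 0 passed the test. ATG7 is the activating enzyme of both conjugation pathways, ATG3 and ATG10 are the transfer enzymes, and the ATG12, ATG5 and ATG16L1 proteins form the complex that places ATG8 proteins on the membrane. ATG3 had the smallest p, at 18.7, 18.5 and 19.7 FPKM without doxycycline and 22.1, 22.3 and 25.1 FPKM with it (log2 change 0.27, SE 0.09, limma adjusted p = 0.0779). Its treated libraries were all above the untreated ones. ATG12 was at 103, 104 and 115 FPKM and at 92.4, 95.001 and 89.9 FPKM (log2 change -0.21, limma adjusted p = 0.115), and ATG16L1 at 18.4, 17.3 and 14.7 FPKM and at 13.8, 13.6 and 13.7 FPKM (log2 change -0.27, limma adjusted p = 0.11). In these 2 the treated libraries were the lower ones, without overlap. ATG5, the partner that links them, had the opposite sign (23.7 ± 2.60 and 26.6 ± 2.22 FPKM, 95% interval -0.08 to 0.39), with overlapping groups.

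The ATG4 proteases trim ATG8 proteins before conjugation and release them afterwards. ATG4D was at 14.9, 12.4 and 12.9 FPKM without doxycycline and at 14.9, 17.7 and 22.8 FPKM with it (log2 change 0.42, SE 0.14, limma adjusted p = 0.0948). The lowest treated library was barely above the highest untreated one, and replicate 3 with doxycycline was the highest of all. ATG4B, the main protease of the family, was at 38.5 ± 3.52 and 42.5 ± 5.47 FPKM, ATG4A at 8.86 and 9.70 FPKM and ATG4C at 9.60 and 9.31 FPKM. ATG7 was at 10.0 and 10.1 FPKM, and ATG10 at 8.40 and 8.91 FPKM. These groups overlapped. ATG10 shares 374 of its 5449 exon bases with RPS23 on the opposite strand, a far more abundant gene (1159 to 1360 FPKM). ATG7 shares 1596 of 8833 with VGLL4, also on the opposite strand (15.3 to 21.8 FPKM). ATG12 shares 378 of 8888 with AP3S1 on the opposite strand (285 to 347 FPKM). What these shared bases contribute was not tested. Some further genes described here also share exon bases with other genes, and not all such overlaps are given.

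Of the 4 ATG8 genes, 1 fell and 0 rose. GABARAP (ENSG00000170296, chromosome 17, 7240008 to 7242449, minus strand), a founding member of the family with roles in autophagosome closure and receptor traffic, was at 161, 154 and 153 FPKM without doxycycline. With doxycycline it was at 91.5, 98.5 and 123 FPKM. Every treated library was lower, and replicate 3 less so than the other treated libraries. The log2 change was -0.59 (SE 0.11, limma adjusted p = 0.0165), and the mean level fell by 33.1%. The call was lost without -Dox replicates 1 and 2 (adjusted p = 0.0582 and 0.0631) and without +Dox replicate 2 (0.0541), while without +Dox replicate 3 it was at 0.00418. Over the alternatives its adjusted p ranged from 0.00313 to 0.0907. GABARAP shares 691 of its 2266 exon bases with AC120057.2 on the same strand, which was listed at 2.13e-12 FPKM at most. It shares 571 with AC120057.3 on the opposite strand, at 0.347 to 0.446 FPKM without doxycycline and 0.599 to 0.792 FPKM with it. What these overlaps contribute to the GABARAP values was not tested.

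Its close relative GABARAPL2 (GATE-16) was at 66.2, 64.8 and 66.9 FPKM without doxycycline and at 52.9, 49.96 and 59.7 FPKM with it. The treated libraries were lower without overlap, but the test missed the threshold (log2 change -0.28, SE 0.08, limma adjusted p = 0.0688). It passed without +Dox replicate 3 (0.0240) and with libraries scaled to equal totals (0.0196), with a range of 0.0196 to 0.220 over the alternatives. GABARAPL1 was at 35.1, 33.3 and 31.8 FPKM and at 31.6, 31.6 and 36.1 FPKM (log2 change -0.01, 95% interval -0.21 to 0.18). MAP1LC3B, which encodes LC3B, the usual marker protein of autophagosomes, was at 59.96, 64.0 and 64.3 FPKM and at 63.8, 69.1 and 74.2 FPKM (log2 change 0.13, 95% interval -0.05 to 0.32). Both of these overlapped between groups.

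Summed over these 4 genes, FPKM was 323, 316 and 316 without doxycycline and 240, 249 and 293 with it. GABARAP made up 49.0% ± 0.889 of that sum in untreated and 39.9% ± 1.91 in treated libraries, and MAP1LC3B 19.7% ± 1.01 and 26.6% ± 1.2002 (SD, n = 3 each). The shares of replicate 3 with doxycycline, 41.9% and 25.3%, were in both genes the treated ones nearest to the untreated libraries. Replicates 1 and 2 with doxycycline were at 38.2% and 39.5% for GABARAP and at 26.6% and 27.7% for MAP1LC3B. The shares of GABARAPL2 were 20.8% in both groups. These shares describe transcript levels per length, and no test was made on them. The sum leaves out MAP1LC3B2, described below, and the share of a gene can rise because another gene of the sum falls.

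**Figure D4:**
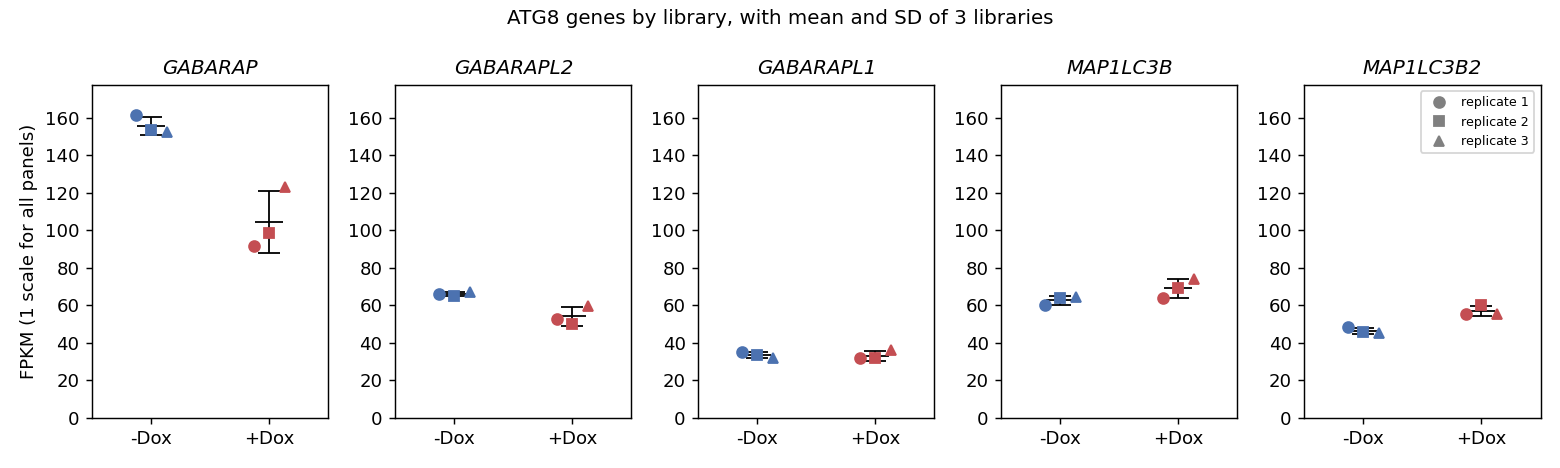
FPKM (y axis, 1 scale for all panels, from 0) of the 4 ATG8 genes and of MAP1LC3B2 in each library, with points for libraries, a short line for the mean and whiskers for the SD of 3 libraries. GABARAP is the highest in every library and falls from 156 to 104 FPKM in the mean, while GABARAPL1 stays near 33 FPKM.

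The value of MAP1LC3B has a limit in the sequence. MAP1LC3B2, on chromosome 12 (116548105 to 116576606), carries a coding sequence of the same 378 bases in length as MAP1LC3B on chromosome 16 (87383953 to 87404779), and the pair is identical at 99.5% of positions. They differ at 2 positions, C30G and A338G, counted from 1 at the start codon with the MAP1LC3B base first, and 307 bases between these are identical. A short read from that stretch cannot be placed on 1 of the genes by its sequence. MAP1LC3B2 rose from 46.3 ± 1.73 to 57.0 ± 2.74 FPKM (log2 change 0.29, limma adjusted p = 0.0461), and lost the call when any library other than +Dox replicate 3 was left out (adjusted p = 0.0725 to 0.178) and with equal totals (0.0914). Its adjusted p ranged from 0.0404 to 0.178 over the alternatives. The sum of both genes was 108, 110 and 109 FPKM without doxycycline and 119, 129 and 130 FPKM with it. No source used here says how shared reads were divided between them, so both values are uncertain. The stretches of the GENCODE 29 coding sequences that hold these differences, bases 1 to 60 and then bases 309 to 368, are printed 5′ to 3′ because they show how little separates these genes, with the differing bases in capitals.
MAP1LC3B, start: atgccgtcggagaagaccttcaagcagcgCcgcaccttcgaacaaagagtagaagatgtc
MAP1LC3B2, start: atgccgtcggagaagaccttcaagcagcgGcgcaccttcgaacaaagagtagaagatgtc
MAP1LC3B, end: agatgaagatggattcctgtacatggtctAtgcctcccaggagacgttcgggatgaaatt
MAP1LC3B2, end: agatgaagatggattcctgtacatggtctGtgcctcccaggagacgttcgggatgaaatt

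Cargo receptors bind ubiquitin or an organelle on one side and ATG8 proteins on the other. NBR1 (ENSG00000188554, chromosome 17, 43170481 to 43211689, plus strand), a receptor for ubiquitin-marked cargo and peroxisomes, was at 30.4, 32.8 and 34.3 FPKM without doxycycline and at 26.7, 25.8 and 25.3 FPKM with it. All treated libraries were lower and close together (log2 change -0.31, SE 0.08, limma adjusted p = 0.0454), and the mean level fell by 20.1%. The call stood near the threshold and was lost in every fit that left out 1 library, at adjusted p = 0.0591, 0.167 and 0.101 without -Dox replicates 1, 2 and 3 and 0.0910, 0.131 and 0.0689 without +Dox replicates 1, 2 and 3. Over all alternatives it ranged from 0.0401 to 0.167. NBR1 shares 463 of its 8405 exon bases with AC060780.1 on the opposite strand (4.38 to 6.14 FPKM). What that overlap contributes to the NBR1 values was not tested.

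SQSTM1, which encodes p62, the best known receptor for ubiquitin-marked protein, was at 190, 153 and 143 FPKM without doxycycline and at 201, 195 and 199 FPKM with it. The treated libraries were higher and close together, while the untreated ones were spread, with replicate 1 near the treated values. The log2 change was 0.30 (SE 0.11, limma adjusted p = 0.103), and SQSTM1 passed when -Dox replicate 1 was left out (0.0427), with a range of 0.0427 to 0.288 over the alternatives. SQSTM1 shares 1582 of its 7654 exon bases with MRNIP on the opposite strand (12.1 to 17.3 FPKM).

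TAX1BP1, a receptor in the clearance of protein aggregates, was at 55.4, 57.8 and 59.6 FPKM and at 66.4, 68.5 and 64.8 FPKM (log2 change 0.21, limma adjusted p = 0.105), treated libraries higher without overlap. CALCOCO2 (NDP52), a receptor for bacteria and damaged mitochondria, was at 77.4 ± 0.970 and 79.5 ± 4.28 FPKM (95% interval -0.13 to 0.21). OPTN, which serves similar cargo, was at 14.4 and 14.6 FPKM, and the ER receptor gene RETREG1 (FAM134B) at 3.90 and 3.88 FPKM. PINK1, the kinase that labels damaged mitochondria, was at 19.6 FPKM in both groups (95% interval -0.23 to 0.22), and shares 1907 of its 4836 exon bases with the antisense gene PINK1-AS (2.92 to 3.97 FPKM). These last 4 genes had overlapping groups.

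Of the 4 tethering and fusion genes, 1 fell and 0 rose. TECPR1 (ENSG00000205356, chromosome 7, 98214624 to 98252232, minus strand), a tether between autophagosomes and lysosomes, was at 4.40, 3.82 and 4.83 FPKM without doxycycline and at 3.36, 2.41 and 2.52 FPKM with it. The groups did not overlap (log2 change -0.51, SE 0.13, limma adjusted p = 0.0448), and the mean level fell by 36.4%. The call was lost without -Dox replicates 1, 2 and 3 (adjusted p = 0.104, 0.0909 and 0.114) and without +Dox replicates 2 and 3 (0.130 and 0.0969), with a range of 0.0395 to 0.147 over the alternatives. STX17, the SNARE protein of the closed autophagosome, was at 8.35 ± 0.369 and 7.52 ± 1.40 FPKM, and its partner SNAP29 at 15.2 ± 2.73 and 13.8 ± 1.69 FPKM. The tether gene EPG5 was at 4.26 ± 0.306 and 3.94 ± 1.03 FPKM. These 3 overlapped between groups, and the values of STX17 and EPG5 in replicate 3 with doxycycline, 5.94 and 2.83 FPKM, were the lowest of each gene.

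Transcription factors that respond to stress are known to act on autophagy genes, and 3 classes of members were written from textbook knowledge. They were written with earlier results of these data known. Of 12 genes reported to depend on ATF4 or CHOP under amino acid starvation, 0 rose and 2 fell (GABARAP and NBR1), with a median log2 change of 0.05. Before adjustment, limma p was under 0.05 for 3 higher (ATG3, BECN1 and SQSTM1) and 5 lower genes, beside 13.6% higher and 14.3% lower over all tested genes. Of 9 genes reported as bound or induced by p53, the factor the series title names, VMP1 rose and 0 fell, with a median of 0.07. VMP1 was also the 1 gene of this class with an unadjusted limma p under 0.05, a share below the 27.9% of all tested genes. Of 4 reported targets of TFEB, a lysosomal regulator, WIPI1 fell and 0 rose, with a median of 0.11, and before adjustment 1 was higher and 1 lower. Among all tested genes 8.46% were called and the median was 0.00, and the classes share members.

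Outside the 43 genes, 50 of 53 other autophagy genes were tested, from a list also chosen with earlier results of these data known. Of these 4 rose and 3 fell, which is 14% beside the 8.46% over all tested genes. Before adjustment 10 were higher and 8 lower at a limma p under 0.05, where all tested genes had 13.6% and 14.3%, and the median log2 change was 0.06. ATG16L2, a relative of ATG16L1 with no established need in bulk autophagy, was at 5.88, 5.04 and 4.33 FPKM without doxycycline and at 2.43, 2.27 and 2.15 FPKM with it. The mean level fell by 55.1% (log2 change -0.88, SE 0.12, limma adjusted p = 0.00548), and the call held under each of the 13 alternatives (adjusted p 0.00453 to 0.0458). ATG16L2 shares 680 of its 8617 exon bases with FCHSD2 on the opposite strand (3.87 to 4.95 FPKM). What that overlap contributes to the ATG16L2 values was not tested.

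The other calls included mitophagy receptors in both directions. BNIP3 (42.1 ± 1.51 to 33.4 ± 1.37 FPKM, log2 change -0.33) and BNIP3L (56.7 ± 3.65 to 45.002 ± 2.35 FPKM, log2 change -0.33), outer membrane mitophagy receptors known as hypoxia-induced genes, fell, with limma adjusted p of 0.0328 and 0.0430. FUNDC1, a mitophagy receptor of another family, rose from 14.9 ± 1.41 to 21.9 ± 4.07 FPKM (log2 change 0.52, limma adjusted p = 0.0406). Its treated libraries were at 19.3, 19.8 and 26.6 FPKM, with replicate 3 the highest. NRBF2, a subunit of the Beclin 1 complex, rose from 17.5 ± 1.13 to 23.0 ± 1.43 FPKM (log2 change 0.37, limma adjusted p = 0.0347), and EI24, an ER protein known as a p53-induced gene, from 75.6 to 93.4 FPKM (log2 change 0.30, limma adjusted p = 0.0310). The remaining call was MAP1LC3B2, given above.

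Leaving out single libraries ended each of these calls apart from that of ATG16L2. NRBF2 and BNIP3L lost theirs in all 6 such fits (adjusted p = 0.0657 to 0.0988 and 0.0591 to 0.183). EI24 and BNIP3 lost theirs without any library other than +Dox replicate 3 (up to 0.138 and 0.108), and FUNDC1 without any library other than +Dox replicate 1 (up to 0.110). Over all alternatives the adjusted p ranged from 0.0287 to 0.109 for NRBF2, 0.0399 to 0.183 for BNIP3L, 0.0258 to 0.138 for EI24, 0.0228 to 0.108 for BNIP3 and 0.0354 to 0.163 for FUNDC1.

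The counts rested on which libraries were used. Without -Dox replicates 1, 2 and 3, the members called higher numbered 2, 0 and 1 and those called lower 0, 0 and 2. Without +Dox replicates 1, 2 and 3, there was 1 called higher in each fit and 2, 0 and 3 called lower. The same fits called 231, 76 and 231 of all tested genes higher without the untreated replicates and 267, 142 and 412 without the treated ones. Lower calls over all tested genes were 274, 147 and 441 without the untreated replicates and 346, 246 and 588 without the treated ones. VMP1 was called in 5 of these 6 fits, GABARAP in 3, WIPI1 in 2, TECPR1 in 1 and NBR1 in 0.

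**Figure D5:**
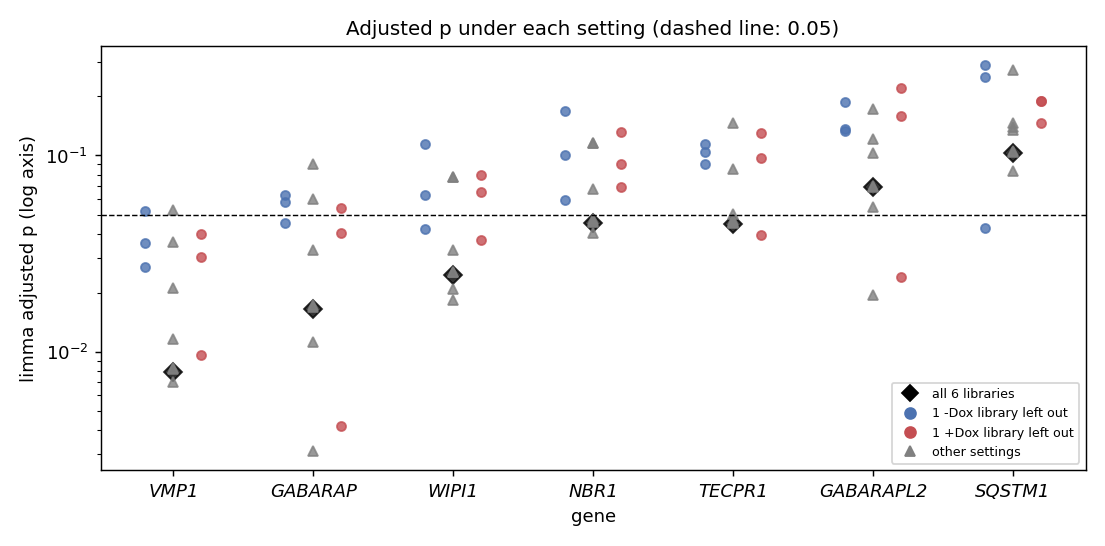
Limma adjusted p (y axis, log scale) of 7 autophagy genes with all 6 libraries (black diamonds), with 1 untreated (blue) or 1 treated (red) library left out, and under the other settings (grey triangles), with the threshold of 0.05 dashed. All 7 genes have points on both sides of the line, and VMP1 reaches at most 0.0525.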

How the data were processed

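Gene expression was measured by RNA sequencing of total RNA in 6 libraries. The authors deposited a single table of values by gene and library, treated as FPKM because the values are not whole, sum to unequal totals and, in single-exon genes, scale with length, since the header names no unit. Per the submitters' processing notes the build was hg19 and the tools were STAR, RSEM, kallisto, Bowtie, BWA and Cufflinks, with no role or version. The deposited loci are those of GRCh38: 39321 of 39331 identifiers found in GENCODE 29 had its locus after 1 was added to the start. FPKM divides out length and library size, so that abundant transcripts lower the values of others.

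Depth was estimated from the most frequent low value in 3644 single-exon genes longer than 1000 bases. That value was sought only within a fixed window of low values, which limits the depths the estimate could return. The 14475 genes that reached 1 FPKM in 3 or more libraries entered the test on log2(FPKM + 1) with limma 3.58.1 (R 4.3.3, trended and robust, group as the only term), two-sided, with Benjamini-Hochberg adjustment over all tested genes and a threshold of 0.05. The fit was also run on simulated data in which genes varied independently, with no shift shared by a library, and no result here rests on that run. Values were given for members past the threshold, for the smallest p of each step and, chosen after their values were seen, for further members; among other autophagy genes those past the threshold were named. The members and lists were chosen with earlier results of these data known. Alternatives changed the pseudocount, the filter, the scaling, the empirical Bayes options, a replicate block and the libraries used.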

Additional observations from a re-analysis of the deposited data

How the results depend on the processing

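CAPG kept its direction and its call under all 13 alternatives. Among the 43 members, 36 of the 38 that missed the threshold missed it under every alternative, the exceptions being GABARAPL2 and SQSTM1, and no called gene of either autophagy list changed sign. VMP1 was called under 11 of 13 alternatives, GABARAP under 8, WIPI1 under 7, TECPR1 under 5 and NBR1 under 4. Without the filter on low values (32367 genes tested) 53 of all genes were higher and 100 lower, 0 members were lower, and 0 other autophagy genes were higher and 1 lower. Without trend and robust options 354 of all genes were higher, 2 members were lower, and 0 other autophagy genes were higher and 1 lower. The cause of these shifts was not tested. With 1 library left out, all genes called ranged from 76 to 412 higher and 147 to 588 lower, members from 0 to 2 higher and 0 to 3 lower, and other autophagy genes from 0 to 2 higher and 1 to 2 lower.

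With the replicate number as a block, 69 of all genes were higher and 142 lower, 0 members were higher and 0 lower, and 0 other autophagy genes were higher and 1 lower. The numbers were not used as pairs: deviations from the group means of same-numbered libraries correlated at -0.0433, 0.00936 and -0.0231. Under the block the adjusted p of VMP1 was 0.0525 and that of GABARAP 0.0597. With 3 libraries a group, intervals of single members were wide, from -0.46 to 0.33 on the log2 scale for ULK2, the lowest member.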

Other observations

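Of the 5 members past the threshold, 4 lie on chromosome 17, which holds 7 of the 43: VMP1 rose, GABARAP, WIPI1 and NBR1 fell, and BECN1, CALCOCO2 and ULK2 did not pass. Of the other 36 members 1 was called. Among all 908 tested genes of chromosome 17, 38 were higher and 53 lower, 10.0% against 8.46% of all tested genes, with a median log2 change of -0.01. This grouping was noticed after the values were seen and was not tested.

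MAP1LC3A and MAP1LC3C, other LC3 genes, did not reach the level required for testing and stayed under 0.149 FPKM in every library.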
